A study of Mus musculus with 4 samples.

Results

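The genes for the proteins of the cytosolic ribosome were followed in mouse liver under 2 atherogenic diets. Members were all genes whose symbol in the array's platform annotation is Rpl, Rps or Rplp followed by a number, with pseudogenes, mitochondrial ribosomal proteins and S6 kinases left out, and with only probes that name 1 gene. This gave 68 genes, 23 of the small subunit (Rps) and 45 of the large subunit (Rpl and Rplp), out of 13705 genes tested. They were read by 87 probes, and all 87 had a value on all 4 arrays, so no filter removed a member. A further 12 genes that the symbol rule would take from the RefSeq table of mouse genes were not analysed here.

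Livers were taken from males of the inbred strain C57Bl/6J. There were 4 two-colour oligonucleotide arrays, 1 for each condition: an atherogenic diet with high fat for 24 weeks, the same diet for 6 weeks, an atherogenic diet without that addition for 24 weeks (called plain here), and the plain diet for 6 weeks. On each array the amplified liver RNA of the diet was labelled with Cy5 and that of chow-fed mice of the same strain and sex with Cy3, without a dye-swapped array, so dye and diet cannot be told apart. Chow had been fed for the same number of weeks, except that no duration is given on the plain 6-week array. The labels do not state what the diets contained, how many mice gave an RNA, or whether a chow sample served several arrays. All values are log2 ratios of diet over chow, so 1 means a doubling in the diet liver. Their direction was taken from the dyes and their base was inferred as 10. Read as base 2 or as natural logs, the same data would give smaller folds and unchanged p-values.

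A ribosome has a small subunit, which decodes the messenger RNA, and a large subunit, which joins amino acids, and each is built of ribosomal RNA and many proteins, most in single copy. The genes of these proteins are highly transcribed, and their messenger RNAs share a pyrimidine-rich start, the terminal oligopyrimidine tract, through which mTOR signalling controls their translation. Liver makes most plasma proteins and holds many ribosomes. Ribosomal protein genes also have many processed copies of near-identical sequence, which an oligonucleotide probe may not tell from the parent gene.

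The start regions of members were searched for short motifs in RefSeq promoter sequences (assembly GRCm38.p6, 250 bases before to 50 after each annotated start), which were available for 54 of the 68 members. Sequences are shown for the 6 members with the highest mean ratio of diet over chow among those with a sequence, the 4 with the lowest, and between them 4 others in which CTTTCC begins within the first 6 transcribed bases, so that start regions of genes with high and low ratios can be read side by side. Each runs 5′ to 3′ on the gene's strand from 60 bases before to 30 bases after the first start listed. Capitals mark CTTTCC, a stretch of the pyrimidine type, and CCGGAAG on either strand (CTTCCGG when read on the other one), the letters bound by ETS-family factors.
Rpl39l, chr16:10170168-10170257, plus strand: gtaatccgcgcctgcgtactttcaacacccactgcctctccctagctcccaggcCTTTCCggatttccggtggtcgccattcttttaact
Rps12, chr10:23787180-23787269, minus strand: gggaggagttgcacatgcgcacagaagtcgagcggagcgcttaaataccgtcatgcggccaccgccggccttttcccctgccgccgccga
Rps10, chr17:27635215-27635304, minus strand: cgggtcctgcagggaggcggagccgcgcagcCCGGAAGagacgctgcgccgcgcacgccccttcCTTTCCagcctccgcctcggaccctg
Rpl19, chr11:98026650-98026739, plus strand: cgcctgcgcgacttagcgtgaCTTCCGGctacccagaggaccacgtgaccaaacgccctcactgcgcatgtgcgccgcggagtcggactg
Rpl41, chr10:128549139-128549228, minus strand: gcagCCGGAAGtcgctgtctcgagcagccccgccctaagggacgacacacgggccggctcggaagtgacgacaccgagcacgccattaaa
Rps15a, chr7:118116118-118116207, minus strand: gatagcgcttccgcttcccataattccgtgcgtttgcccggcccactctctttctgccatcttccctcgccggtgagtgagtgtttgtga
Rps27, chr3:90213619-90213708, minus strand: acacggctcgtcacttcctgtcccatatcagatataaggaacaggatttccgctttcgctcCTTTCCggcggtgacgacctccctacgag
Rpl15, chr14:18270957-18271046, minus strand: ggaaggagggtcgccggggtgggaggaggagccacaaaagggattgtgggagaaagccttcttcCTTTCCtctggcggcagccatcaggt
Rpl38, chr11:114668520-114668609, plus strand: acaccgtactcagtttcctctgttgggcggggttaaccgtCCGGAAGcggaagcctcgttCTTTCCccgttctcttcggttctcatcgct
Rpl28, chr7:4792905-4792994, plus strand: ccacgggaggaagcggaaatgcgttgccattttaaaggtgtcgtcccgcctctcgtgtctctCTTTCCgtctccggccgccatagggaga
Rps18, chr17:33955636-33955725, minus strand: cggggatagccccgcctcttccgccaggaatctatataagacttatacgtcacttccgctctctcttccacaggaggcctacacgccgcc
Rpl3l, chr17:24727766-24727855, plus strand: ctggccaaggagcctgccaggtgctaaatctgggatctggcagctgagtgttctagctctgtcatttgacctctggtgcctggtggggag
Rps23, chr13:90923062-90923151, plus strand: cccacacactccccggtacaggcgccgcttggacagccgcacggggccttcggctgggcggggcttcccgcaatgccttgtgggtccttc
Rps2, chr17:24720003-24720092, plus strand: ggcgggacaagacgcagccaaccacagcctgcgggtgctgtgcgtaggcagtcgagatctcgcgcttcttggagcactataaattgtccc
Counted from the first transcribed base as 1, CTTTCC begins at position 5 in Rps10, 2 in Rps27, 1 in Rpl38 and 3 in Rpl28, and at -6 in Rpl39l. Neither motif is present in the stretch shown for the high members Rps12 and Rps15a, nor for any of the 4 lowest, Rps18, Rpl3l, Rps23 and Rps2. Rps18 and Rps2 hold CCGGAAG further upstream, in Rps2 at -127, while Rpl3l, Rps23, Rps12 and Rps15a hold neither motif in the whole window of the start shown.

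Over the whole window, CTTTCC on the transcribed strand was found in 21 of 54 members (38.9%), against 15.9% of 17492 protein-coding genes. On either strand it was found in 27 members (50%), against 28.8% of protein-coding genes. The longer CTCTTTCC, which contains it, was found on the transcribed strand in 6 members (11.1%), against 1.82%. CCGGAAG on either strand was found in 24 members (44.4%), against 12.9%, and AAGATGGC, the letters bound by Yy1, which can overlap the end of CCGGAAG, in 5 members (9.26%), against 3.57%. The TATA box letters TATAAA on the transcribed strand were found in 3 members (5.56%), against 9.82% of protein-coding genes. Both CTTTCC and CCGGAAG were found in 11 members, CTTTCC alone in 10, CCGGAAG alone in 13 and neither in 20. The median ratio of diet over chow was 0.44 in members with CTTTCC and 0.42 in those without it, and 0.46 in members with CCGGAAG and 0.38 in those without. These medians lie closer together than the quartiles of the members. A match is a run of letters and not a shown binding site.

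Diet over chow asks what the 4 diet conditions share relative to chow. Of the 68 members, 28 were higher (41.2%) and 0 were lower at an adjusted p under 0.05 in limma, a linear model with a moderated error fitted to all genes and adjusted by Benjamini and Hochberg. Among all genes tested 6.25% were called higher and 5.72% were called lower. Without adjustment, 54 members were higher and 0 lower at a p under 0.05, as were 16.3% and 14.3% of all genes. The median member had a log2 ratio of 0.42, a 1.34-fold difference, with quartiles of 0.32 and 0.60. The median over all genes was 0.005. All but 3 members (65 of 68) had a mean above 0, as did 50.8% of all genes. The members' range ran from -0.12 for Rpl21 to 1.16 for Rpl39l. On all 4 arrays 47 members (69.1%) lay above 0, as did 20.7% of all genes, and 0 lay below 0 on all 4, as did 20% of all genes.

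The p-values measure the spread between 4 different conditions with 1 array each, not between animals. Leaving out the high-fat 24-week array gave 14 members called higher, leaving out the high-fat 6-week array 16, and leaving out the plain 24-week array 14. The background in these 3 fits was 3.12%, 3.05% and 0.890% of all genes. Without the plain 6-week array 26 members were called, with a background of 4.33%. Rpl3, Rpl13, Rpl19, Rpl32, Rpl35, Rpl39l, Rps10, Rps15a and Rps26, 9 members in all, were called with all arrays and in each of these 4 fits. The share of all genes called in every fit was not counted. It cannot exceed the 0.890% of the fit without the plain 24-week array.

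**Figure D1:**
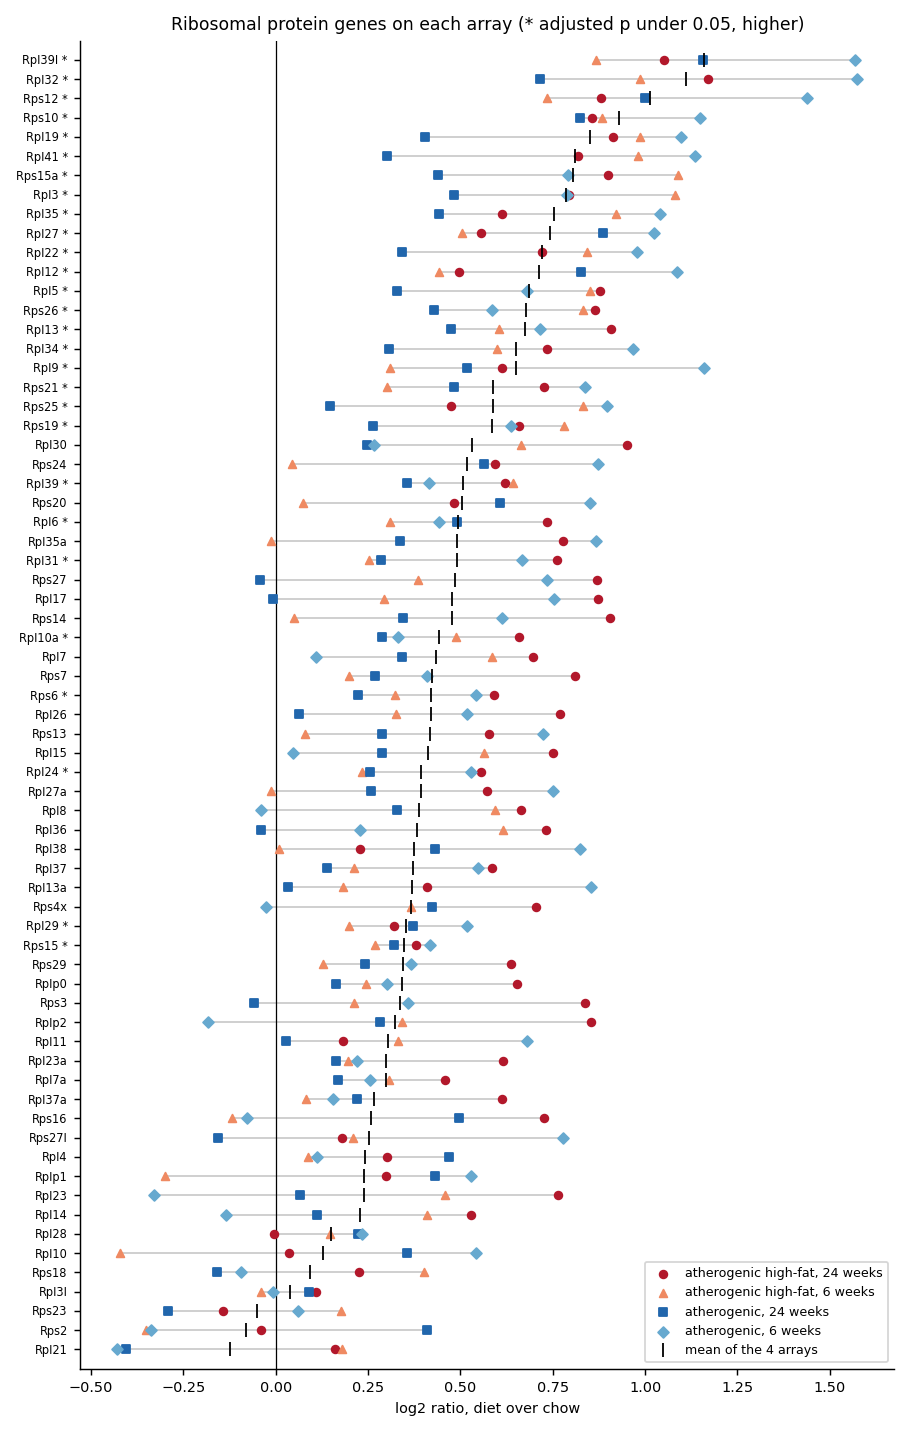
Log2 ratio of diet over chow (horizontal axis) of the 68 members (rows, ordered by their mean) on each of the 4 arrays (symbols), with the mean as a vertical tick and a grey line over the range. Most members lie to the right of 0, with 65 of 68 means above it, and the 28 called higher carry an asterisk.

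Rpl39l, a paralog of Rpl39 best known from testis whose protein lines the exit tunnel of the large subunit, had the highest mean. It read 1.05 and 0.87 with high fat at 24 and 6 weeks, and 1.16 and 1.57 with the plain diet at 24 and 6 weeks. Its mean was 1.16 ± 0.13 (SE, n = 4 arrays), a 2.23-fold difference (limma adjusted p = 0.00502). All 4 arrays were high and none lay near 0.

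Rpl32, a large-subunit protein widely used as a loading control, read 1.17 and 0.99 with high fat at 24 and 6 weeks, and 0.71 and 1.57 with the plain diet at 24 and 6 weeks. Its mean was 1.11 ± 0.14 (SE, n = 4 arrays; limma adjusted p = 0.00838). Rps12, a protein of the small subunit's head, read 0.88 and 0.73 with high fat at 24 and 6 weeks, and 0.9999 and 1.44 with the plain diet. For Rps12 the mean was 1.01 ± 0.13 (SE, n = 4 arrays; limma adjusted p = 0.00766). In both genes the plain 6-week array gave the highest value.

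Rps10, which sits near the messenger RNA entry side of the small subunit, was the most even of the strong members. It read 0.86 and 0.88 with high fat at 24 and 6 weeks, and 0.82 and 1.15 with the plain diet at 24 and 6 weeks, a mean of 0.93 ± 0.09 (SE, n = 4 arrays; limma adjusted p = 0.00365). The other 8 of the 12 highest members had means between 0.71 and 0.85, that is 1.64-fold to 1.80-fold.

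Rpl19, whose long helix bridges the subunits, read 0.91 and 0.99 with high fat at 24 and 6 weeks, and 0.41 and 1.10 with the plain diet. Rpl41, one of the smallest and most basic proteins known, read 0.82 and 0.98 with high fat, and 0.30 and 1.14 with the plain diet. Rpl22, a large-subunit protein, read 0.72 and 0.84 with high fat, and 0.34 and 0.98 with the plain diet. In these 3 genes the plain 24-week array was the lowest and the plain 6-week array the highest. Their means were 0.85 (adjusted p = 0.0125), 0.81 (0.0195) and 0.72 (0.0164).

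Rps15a, a small-subunit protein, read 0.90 and 1.09 with high fat at 24 and 6 weeks, and 0.44 and 0.79 with the plain diet. Rpl3, whose protein reaches towards the peptidyl transferase centre, read 0.79 and 1.08 with high fat, and 0.48 and 0.79 with the plain diet. Rpl35, found near the tunnel exit, read 0.61 and 0.92 with high fat, and 0.44 and 1.04 with the plain diet. All 3 were lower at 24 than at 6 weeks with both diets, and their means of 0.80, 0.79 and 0.75 passed the test (adjusted p = 0.0120, 0.0110 and 0.0146).

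Rpl27 and Rpl12 lay lower with high fat than with the plain diet, by a mean difference of -0.43 and -0.49. Neither passed the test for fat given below (limma adjusted p = 0.0889 and 0.0723). Rpl27 read 0.55 and 0.50 with high fat at 24 and 6 weeks, and 0.89 and 1.02 with the plain diet. Rpl12, part of the base of the stalk, read 0.49 and 0.44 with high fat, and 0.83 and 1.09 with the plain diet. Both plain arrays lay above both high-fat arrays in each gene, while the means over chow of 0.74 and 0.71 passed the test (adjusted p = 0.0131 and 0.0195).

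At the other end stood members near the chow level. Rpl21 read 0.16 and 0.18 with high fat at 24 and 6 weeks, and -0.41 and -0.43 with the plain diet. Rps2, at the messenger RNA entry, read -0.04 and -0.35 with high fat, and 0.41 and -0.34 with the plain diet. Rps23, a protein of the decoding centre, read -0.14 and 0.18 with high fat, and -0.29 and 0.06 with the plain diet. Each of these 3 had arrays on both sides of 0, and their means of -0.12, -0.08 and -0.05 were called neither higher nor lower.

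Rpl28 read -0.003 and 0.15 with high fat at 24 and 6 weeks, and 0.22 and 0.23 with the plain diet, with a mean of 0.15. Its 95% interval ran from -0.05 to 0.35. Rpl10, the protein that joins the large subunit last before it enters translation, read 0.03 and -0.42 with high fat, and 0.36 and 0.54 with the plain diet, with a mean of 0.13. Rpl28 varied little and Rpl10 widely, yet neither passed the test.

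Summary values of the subunits lay close together. Small-subunit members had a median log2 ratio of 0.42 and large-subunit members of 0.41. Of the small-subunit members 9 of 23 were called higher, and of the large-subunit members 19 of 45.

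The 3 proteins of the stalk, which recruits the translation factors, had means below the members' median. Rplp0, the stalk's base, read 0.65 and 0.24 with high fat at 24 and 6 weeks, and 0.16 and 0.30 with the plain diet. Rplp1 read 0.30 and -0.30 with high fat, and 0.43 and 0.53 with the plain diet. Rplp2 read 0.85 and 0.34 with high fat, and 0.28 and -0.18 with the plain diet. Rplp1 was lowest on the array where Rplp2 was second highest, although their proteins pair with each other. Their mean log2 ratios over chow of 0.34, 0.24 and 0.32 did not pass the test (adjusted p = 0.0834, 0.311 and 0.228).

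Paralog pairs were read by separate probes. Rpl3l, the form of Rpl3 known from heart and skeletal muscle, read 0.11 and -0.04 with high fat at 24 and 6 weeks, and 0.09 and -0.01 with the plain diet, against a range of 0.48 to 1.08 for Rpl3. Its mean of 0.04 had a 95% interval from -0.15 to 0.23, which lies below the interval of Rpl3 from 0.52 to 1.05, although the difference itself was not tested. Rpl39 read 0.62 and 0.64 with high fat, and 0.36 and 0.42 with the plain diet. Its mean of 0.51 ± 0.09 passed the test (SE, n = 4 arrays; limma adjusted p = 0.0192), as that of its paralog Rpl39l did. Rpl39l lay above Rpl39 on each array, which is a comparison of ratios and not of levels.

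Rps27 read 0.87 and 0.39 with high fat at 24 and 6 weeks, and -0.04 and 0.73 with the plain diet. Its paralog Rps27l, a p53 target, read 0.18 and 0.21 with high fat, and -0.16 and 0.78 with the plain diet. The plain 24-week array was the lowest in both genes. Neither mean, 0.49 for Rps27 and 0.25 for Rps27l, passed the test (adjusted p = 0.0935 and 0.301).

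Members with roles outside or at the edge of translation were mixed. Rpl5 and Rpl11 bind the same small ribosomal RNA and, when free, the p53 regulator Mdm2. Rpl5 read 0.88 and 0.85 with high fat at 24 and 6 weeks, and 0.33 and 0.68 with the plain diet, and its mean of 0.68 passed the test (adjusted p = 0.0167). Rpl11 read 0.18 and 0.33 with high fat, and 0.03 and 0.68 with the plain diet, and its mean of 0.31 did not (adjusted p = 0.145).

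Rps6, the substrate of the S6 kinases, read 0.59 and 0.32 with high fat at 24 and 6 weeks, and 0.22 and 0.54 with the plain diet, with a mean of 0.42 that passed the test (adjusted p = 0.0389). Rps19, mutated in human Diamond-Blackfan anaemia, read 0.66 and 0.78 with high fat, and 0.26 and 0.64 with the plain diet, with a mean of 0.58 that also passed (adjusted p = 0.0212). In both genes the plain 24-week array was the lowest. For Rps6 this held for the probe with the higher mean (0.06 there). The other Rps6 probe read 0.39 there and was lowest with high fat at 6 weeks (0.06). In a limma fit over probes neither Rps6 probe passed (adjusted p = 0.0674 and 0.0873).

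Each array was then set beside the whole array. The median member had a log2 ratio of 0.66 with high fat at 24 weeks, 0.32 with high fat at 6 weeks, 0.30 with the plain diet at 24 weeks and 0.55 with the plain diet at 6 weeks. The medians over all genes on these arrays were -0.008, -0.013, 0.05 and 0. Members above 0 numbered 65, 61, 60 and 58 of 68 in the same order, against 48.3%, 47.4%, 55.0% and 49.8% of all genes. The members' median was highest on the high-fat 24-week array, and the spread over members was widest on the plain 6-week array, with an SD of 0.45, against 0.28, 0.35 and 0.27 on the high-fat 24-week, high-fat 6-week and plain 24-week arrays.

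A doubling or more was reached by 2 members on the high-fat 24-week array (0.963% of all genes), by 2 on the high-fat 6-week array (0.671%), by 1 on the plain 24-week array (2.14%) and by 10 on the plain 6-week array (4.31%). No member lay 2-fold or more below chow on any of these arrays, as 1.55%, 1.33%, 1.29% and 1.64% of all genes did. The plain 6-week array also had the widest spread over all probes, with an SD of 0.53, against 0.39, 0.37 and 0.46 on the high-fat 24-week, high-fat 6-week and plain 24-week arrays.

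**Figure D2:**
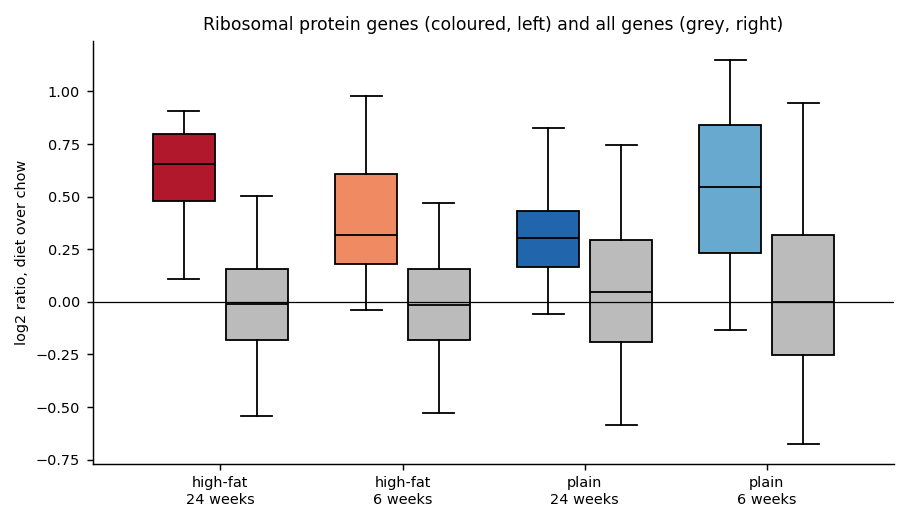
Log2 ratio of diet over chow (vertical axis) of the 68 members (coloured, left box) and of all 13705 genes (grey, right box) on each array; boxes span the quartiles, lines mark medians and whiskers run from the 5th to the 95th percentile over genes. The member boxes lie above 0 on all 4 arrays, with medians between 0.30 and 0.66.

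High fat against the plain diet asks what the added fat changed at matched duration. In an additive model with terms for diet and duration, which leaves 1 residual degree of freedom, 3 of 68 members were higher with high fat and 0 were lower, against 3.99% and 7.25% of all genes. The members' share of 4.41% is near the background. The median member differed by 0.09, against -0.06 over all genes. Without adjustment 13 members were higher and 7 lower at a p under 0.05, as were 11.7% and 21.1% of all genes. The count was 1, higher, with each array centred on its median, where the background was 2.52% higher and 7.64% lower, and 14, all higher, with arrays scaled to a common spread, where the background was 3.86% higher and 11.4% lower.

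Rpl23, a large-subunit protein that can also bind Mdm2, read 0.76 and 0.46 with high fat at 24 and 6 weeks, and 0.07 and -0.33 with the plain diet. High fat minus plain was 0.74 ± 0.14 (SE, 4 arrays; limma adjusted p = 0.0252), and both high-fat arrays lay above both plain arrays. For Rpl21, whose values are given with the lowest members, the difference was 0.59 (adjusted p = 0.0408), and for the stalk protein Rplp2 it was 0.55 (adjusted p = 0.0467). Each of these 3 was called for fat while its mean over chow was not called.

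Just outside the threshold stood Rpl36, Rpl30 and Rpl15. Rpl30 read 0.95 and 0.66 with high fat at 24 and 6 weeks, and 0.25 and 0.27 with the plain diet, a difference of 0.55 (adjusted p = 0.0547). Rpl15 read 0.75 and 0.56 with high fat, and 0.29 and 0.05 with the plain diet, a difference of 0.49 (adjusted p = 0.0603). Rpl14 read 0.53 and 0.41 with high fat, and 0.11 and -0.13 with the plain diet, a difference of 0.48 (adjusted p = 0.0647). In all of them both high-fat arrays lay above both plain arrays.

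The lowest differences were those of Rpl10, at -0.64 (adjusted p = 0.0603), and of Rpl38, which read 0.23 and 0.01 with high fat at 24 and 6 weeks, and 0.43 and 0.82 with the plain diet (difference -0.51, adjusted p = 0.0985). Rps20 read 0.48 and 0.07 with high fat, and 0.61 and 0.85 with the plain diet (difference -0.45, adjusted p = 0.136). None of these passed the test. Members therefore lay on both sides of 0 for added fat, while nearly all of them lay above 0 for diet over chow.

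The mean over durations hides a pattern in the members. At 24 weeks high fat exceeded the plain diet by a median of 0.36, with 56 of 68 members above 0. At 6 weeks the median difference was -0.14, with 20 members above 0 and 48 below. Over all genes the medians were -0.07 and -0.04, with 41.9% and 45.5% of genes above 0. High fat lay above plain at 24 weeks and below it at 6 weeks in 36 members (52.9%), a sign pair that 10.7% of all genes had. The opposite pair was held by 0 members and by 14.3% of all genes. High fat lay above plain at both durations in 20 members (29.4%; 31.1% of all genes) and below it at both in 12 (17.6%; 43.3% of all genes).

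The difference between durations rests on 1 array per condition and could not be tested, since it is the model's only residual. The members' median differences kept their signs when arrays were centred (0.33 at 24 weeks and -0.22 at 6 weeks) or scaled to a common spread (0.52 and -0.04).

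**Figure D3:**
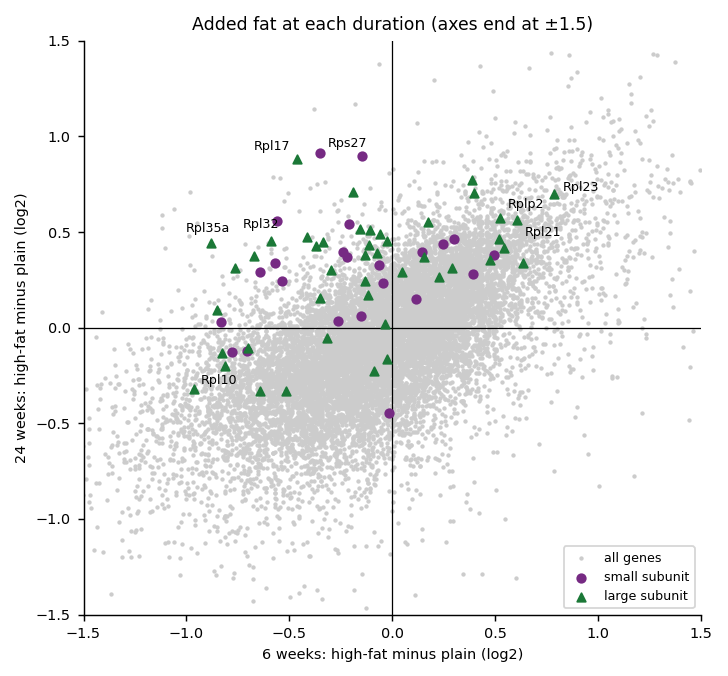
High-fat minus plain log2 difference at 24 weeks (vertical axis) against that at 6 weeks (horizontal axis) for all genes (grey) and the members (small subunit circles, large subunit triangles). All genes spread along the rising diagonal, while 36 members lie in the upper left and none in the lower right.

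Some members showed this pattern strongly, and they were chosen after their values were seen. Rpl35a read 0.78 and -0.01 with high fat at 24 and 6 weeks, and 0.34 and 0.87 with the plain diet, so that fat went with 0.44 more at 24 weeks and 0.88 less at 6 weeks. Rpl17 read 0.87 and 0.29 with high fat, and -0.01 and 0.75 with the plain diet. Rps14 read 0.90 and 0.05 with high fat, and 0.35 and 0.61 with the plain diet. In each of them the high-fat 24-week and plain 6-week arrays were the 2 highest.

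Duration was called for 0 members in the same additive model, and for 0 of 13705 genes, 0% of the background. Without adjustment 5 members were higher and 5 lower at 24 weeks than at 6 weeks, at a p under 0.05, as were 649 and 704 of all genes. The median member differed by 0.003, and this sign turned with 2 ways of centring. With high fat the median of 24 minus 6 weeks was 0.20, with 52 members above 0, and with the plain diet it was -0.27, with 54 below 0. Over all genes these medians were 0.003 and 0.02. Of all genes 50.3% lay above 0 with high fat, and 6471 of 13705 lay below 0 with the plain diet. In 39 members (57.4%) the 24-week value was above the 6-week value with high fat and below it with the plain diet. That held for 19.6% of all genes. These differences come from the same array values as the differences for fat, so they are not a separate observation. The plain-diet median was -0.17 with arrays scaled to a common spread.

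Few members had the same large difference between durations with both diets. Rps16 read 0.73 and -0.12 with high fat at 24 and 6 weeks, and 0.49 and -0.08 with the plain diet, so both 24-week arrays were high. Rps25 read 0.48 and 0.83 with high fat, and 0.15 and 0.90 with the plain diet, so both were low. Neither passed the test for duration.

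Put together by array, the high-fat 24-week array was the highest of the 4 for 31 members (45.6%; 19.1% of all genes) and the plain 24-week array the lowest for 32 (47.1%; 18.4% of all genes). The plain 24-week array was the highest for 2 members (2.94%), against 29.2% of all genes, and the high-fat 24-week array was the lowest for 1 (1.47%), against 25.3%. The plain 6-week array was the highest for 28 members (41.2%, against 32.5% of all genes) and the lowest for 8 (11.8%, against 30.2%). These counts read the same array values again.

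Probes of the same gene show how well a single probe places a gene. Rps29, a small zinc-binding protein of the small subunit, was read by 11 probes that name the same transcript record. They averaged 0.64 and 0.13 with high fat at 24 and 6 weeks, and 0.24 and 0.37 with the plain diet, with an SD between probes of 0.15 to 0.26 on an array. All 11 lay above 0 on every array but the high-fat 6-week one, where 7 did. The gene mean of 0.34 ± 0.11 did not pass the test (SE, n = 4 arrays; limma adjusted p = 0.0830). For the 6 other genes with 11 probes the same SD lay between 0.097 and 0.324. This SD describes probes on 1 array and does not measure the error of a difference between arrays.

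The 9 genes with 2 probes ranged from close to wide apart. Averaged over the 4 arrays, the 2 probes differed by 0.09 in Rps6, 0.15 in Rplp0, 0.17 in Rpl5, 0.21 in Rpl35 and 0.36 in Rpl10. The same averages of the 11 Rps29 probes had a range of 0.24. Single arrays differed more, by up to 0.53 in Rps6, 0.52 in Rplp0, 0.43 in Rpl5, 0.56 in Rpl35 and 0.94 in Rpl10. On an array the Rps29 probes had a range of 0.48 to 0.84. The averages of the 4 other genes lay further apart. The 2 probes of Rps18, a small-subunit head protein, averaged -0.29 and 0.48 over the arrays and differed by 1.38 on the plain 6-week array. Those of Rpl11 averaged -0.03 and 0.64, those of Rpl14 -0.09 and 0.55, and those of Rpl13 0.42 and 0.93. In a fit over probes the higher probe passed in all of these (adjusted p = 0.0421 for Rps18, 0.0373 for Rpl11, 0.0298 for Rpl14 and 0.00584 for Rpl13) and the lower one did not. As genes, only Rpl13 of these 4 was called. No gene's probes differed by 1 log2 unit or more on average, and 58 of the 68 members had a single probe, so this spread is unmeasured for them.

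**Figure D4:**
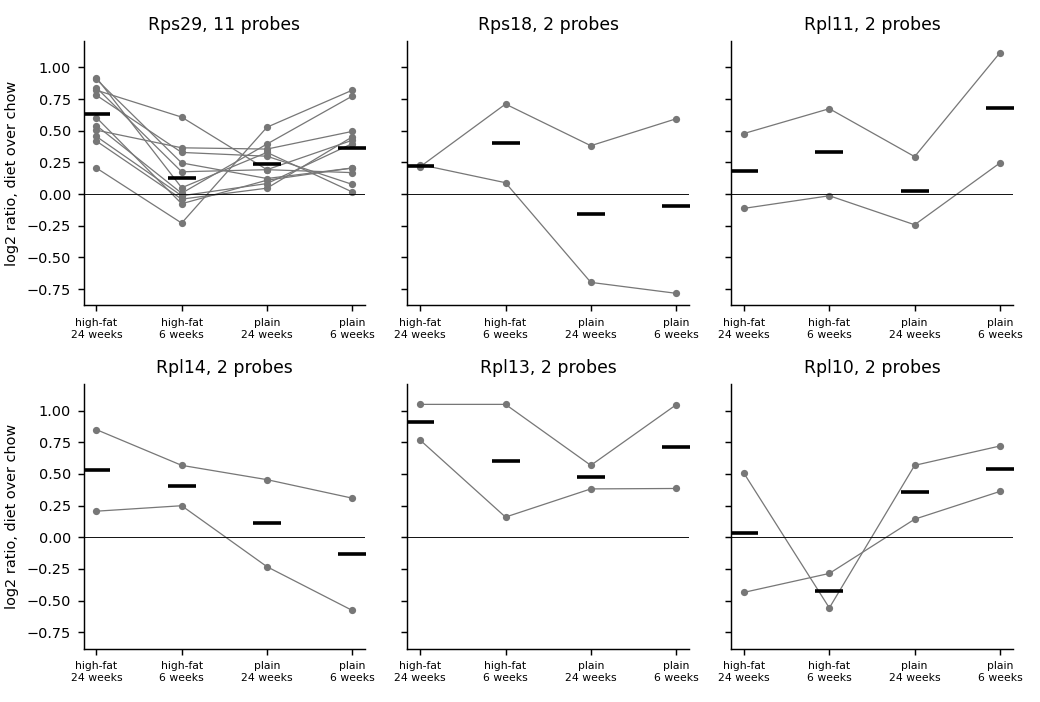
Log2 ratio of diet over chow (vertical axis) of each probe (grey lines) and their mean (black bars) on the 4 arrays (horizontal axis) for Rps29 with 11 probes and 5 genes with 2 probes. The mean of the 11 Rps29 probes is highest on the high-fat 24-week array, though some single probes are highest on the plain 6-week array. The 2 probes of Rps18 part most on the plain arrays.

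Other genes of the translation machinery were counted in the same fits, with a background of 6.25% higher and 5.72% lower for diet over chow. Of 6 cytosolic ribosomal proteins that the symbol rule leaves out, 3 were higher and 0 lower, with a median of 0.45. Rps3a1, a small-subunit protein, read 0.95 and 0.97 with high fat at 24 and 6 weeks, and 0.92 and 1.23 with the plain diet, an even rise with a mean of 1.02 (adjusted p = 0.00259). Rpl22l1, a paralog of Rpl22, and Rpl36al were the others called, with means of 0.59 and 0.42.

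Of 12 elongation factors and related genes 2 were higher and 0 lower over chow, with a median of 0.15. The called genes were Eef1b2 at 0.53 and Eef1g at 0.44, both subunits of the exchange factor that reloads Eef1a1. For high fat minus plain, Eef1a1, which brings aminoacyl-tRNA to the ribosome, differed by -0.95 and Tpt1 by -0.67, while Eef2k, the kinase that inhibits elongation, differed by 0.69. These 3 of 12 passed the test for fat, 1 higher and 2 lower, where the background was 3.99% and 7.25%.

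Of 35 initiation factors 6 were higher and 1 lower, with a median of 0.13. Eif3m, Eif3k and Eif3h, subunits of the scaffold that binds the small subunit, had means of 0.61, 0.60 and 0.58. Eif3e, also called higher, had 0.36, while the other measured subunits were not called, from -0.17 for Eif3a to 0.47 for Eif3l. Eif2s2 and Eif4a1 were the others called higher, at 0.44 and 0.37, and Eif1ad was called lower at -0.48. Of 55 ribosome assembly factors 4 were higher and 2 lower, with a median of 0.13. Tsr3 had the highest mean of these, 1.69, above that of every member. Npm1, a nucleolar chaperone, and Nmd3, which carries the large subunit out of the nucleus, had means of 0.69 and 0.45. Riok2, also called higher, had 0.42, and the 2 called lower, Wdr12 and Bysl, had means of -1.32 and -0.59. The counts for assembly factors are near the background.

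Of 12 subunits and factors of RNA polymerase I 1 was higher and 0 lower, and of 16 mTOR and S6 kinase genes 1 was higher (Eif4ebp1, a repressor of cap-dependent initiation, at 0.48) and 0 lower. Of 69 mitochondrial ribosomal proteins, which serve the separate ribosome of that organelle, 4 were higher and 0 lower, with a median of 0.17. That share is near the background, and the mitochondrial median lay below the cytosolic one on each array.

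**Figure D5:**
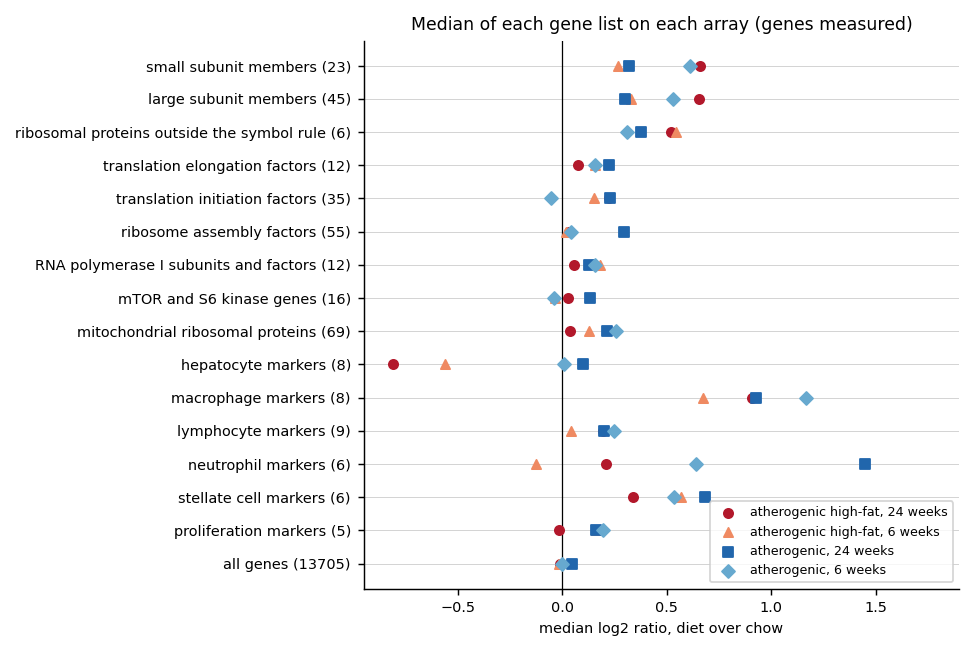
Median log2 ratio of diet over chow (horizontal axis) of each gene list with at least 5 measured genes (rows, with the number measured) on the 4 arrays (symbols). Both subunits of the cytosolic ribosome lie between 0.27 and 0.66, the elongation, initiation, assembly, polymerase, mTOR and mitochondrial lists between -0.05 and 0.30, and the macrophage markers between 0.67 and 1.17.

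Markers of some cell types were called as well. The background over chow was again 6.25% higher and 5.72% lower. In whole liver, fewer cells of a type and less RNA per cell cannot be told apart. Of 8 macrophage markers 5 were higher and 0 lower over chow, with list medians of 0.91, 0.67, 0.93 and 1.17 on the high-fat 24-week, high-fat 6-week, plain 24-week and plain 6-week arrays. Of 6 stellate cell markers 4 were higher, of 6 neutrophil markers 2 were higher and 1 lower, of 9 lymphocyte markers 1 was higher, and of 5 proliferation markers 1, Pcna, was higher. Of 4 bile duct and 2 erythroid markers 0 were called. The median of 8 hepatocyte markers was -0.81 and -0.56 with high fat at 24 and 6 weeks, and 0.10 and 0.01 with the plain diet, with 0 called over chow. For high fat minus plain the background was 3.99% higher and 7.25% lower. Of the 8 hepatocyte markers 1 was higher, Pck1 at 0.96, and 4 were lower, Ttr at -1.81, Alb at -1.53, Apoa2 at -0.90 and Fgb. The part of these cell types in the ribosomal protein ratios was not tested.

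On the high-fat 24-week and 6-week arrays more probes share a log2 value (-1.28 and -1.35) than share neighbouring values. Alb, at -1.28 and -1.34, and Ttr, at -1.27 and -1.35, both lie near it on these arrays. No ribosomal protein probe lay at such a value on any array.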

How the data were processed

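Amplified liver RNA was measured on oligonucleotide arrays (AceGene Mouse Oligo Chip 30K), which were scanned with an Agilent G2505B and read in GenePix Pro 4.1, per the series' design text. The authors deposited 1 log ratio per probe and array after LOWESS normalization in GeneSpring 7.2. The deposited values are read here as log10 of diet over chow and were multiplied to log2. Base and direction are not stated, and centring beyond LOWESS is unknown: the deposited medians were 0.006, 0.006, -0.005 and -0.019 on the high-fat 24-week, high-fat 6-week, plain 24-week and plain 6-week arrays. The sources used here do not give the background correction or any spot filter, and no intensities were used.

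Of 28845 probes, 975 lacked a value on an array and were left out. In the platform annotation 17637 probes had 1 gene, 64 had several and 11144 were not listed, so they stay unnamed here. Symbols were updated to RefSeq (GRCm38.p6) through gene identifiers, which did not match 252 probes; these kept their symbol. A gene is the mean of its probes.

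Tests used limma 3.58.1 in R 4.3.3 (lmFit and eBayes, two-sided, adjusted over 13705 genes, called under 0.05). Diet over chow was the mean of 4 arrays against 0, with 3 residual degrees of freedom. Fat and duration were tested together in an additive model, with 1 residual degree. All 4 arrays entered each fit. The fits were also run on simulated data with independent noise for each gene and array. That simulation does not address how genes or conditions vary together. The number of arrays limits the precision. The members and gene lists were chosen with earlier results of these data known. Values on every array are given for the members with the highest and lowest means, those most changed by fat or duration, the stalk proteins, paralog pairs, and Rps6, Rps19, Rpl5 and Rpl11. Lists are described by counts and medians, with no test.
Alternatives were centring or scaling of arrays, other ways of joining or keeping probes, leaving out paralogs, robust eBayes, other thresholds, models and log bases, and leaving out each array; centring within groups of probe addresses was chosen after seeing the data.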

Additional observations from a re-analysis of the deposited data

Results flagged for a closer look

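The following pairs of differences had opposite signs at the 2 durations or with the 2 diets. Each value is a difference between 2 single arrays or its median over genes, the interaction takes the only residual degree of freedom, and whether the values of a pair differ was not tested.

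Over the 68 members, the median of high fat minus plain was 0.36 at 24 weeks and -0.14 at 6 weeks. The median of 24 minus 6 weeks was 0.20 with the high-fat diet and -0.27 with the plain diet. For Rpl32, high fat minus plain was 0.46 at 24 weeks and -0.59 at 6 weeks, and 24 minus 6 weeks was 0.18 with high fat and -0.86 with the plain diet. For Rps12, 24 minus 6 weeks was 0.15 with high fat and -0.44 with the plain diet.

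High fat minus plain at 24 and 6 weeks was 0.88 and -0.46 for Rpl17, 0.44 and -0.88 for Rpl35a, 0.91 and -0.35 for Rps27, 0.56 and -0.56 for Rps14, and 0.31 and -0.76 for Rpl27a. These 5 genes were chosen after their values were seen.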

How the results depend on the processing

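Replicates could not be paired because each condition has 1 array and the labels give no replicate numbers. Members called higher over chow numbered 44 at an adjusted p under 0.1 (11.2% of all genes), 4 at 0.01 (0.934%), 58 in the model with diet and duration terms (20.8%), and 14 to 26 when 1 array was left out (0.890% to 4.33%). For high fat the count in either direction, 3 in the main setting, was 1 with arrays centred on their median (10.2% of all genes), 14 with arrays scaled to a common spread (15.2%), 7 in a fit over probes (15.8% of probes), 6 with the median of a gene's probes (14.3%), 14 at an adjusted p under 0.1 (23.9%) and 0 at 0.01 (0.168%). The member median over chow was 0.13 with the deposited values read as log2 and 0.18 as natural logs. That of 24 minus 6 weeks was 0.003 and turned to -0.0199 with arrays centred and to -0.0125 with centring within groups of probe addresses, a choice made after seeing the data. The cause of these changes was not tested. No member was called lower over chow, and none for duration, under any alternative run. Spot intensities were not used, and precision rests on 4 arrays without replicates or dye swap.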
